A study of Mus musculus with 22 samples.

Results

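The windows described here carry the transcribed ends and coding parts of genes. Of 96381 windows of 1000 bp around open chromatin of mouse Kupffer cells, 5857 (6.08%) were autosomal windows that the deposited HOMER annotation placed in an exon, a 3′ UTR, a 5′ UTR or at a transcript end (transcription termination site, TTS). The class is given by the annotation at the middle of the window and by no measured value. The set held 2268 exon, 1099 3′ UTR, 894 5′ UTR and 1596 TTS windows. H3K27ac, acetylation of lysine 27 of histone H3, was measured by ChIP–seq in Kupffer cells, macrophages that reside in the liver, sorted from young adult male mice that were left untreated as controls. There were 3 libraries each from the inbred strains A/J, C57BL/6J and BALB/cJ and 3 from CB6F1/J, the F1 hybrid of a BALB/cJ female and a C57BL/6J male, so that in the hybrid the BALB/cJ allele is always the maternal one. The same strains gave 7 input libraries of unprecipitated chromatin (3 A/J, 3 BALB/cJ and 1 C57BL/6J), and livers of all groups were digested with the transcription inhibitor flavopiridol present. The comparisons ask how far this mark differs between strains in gene bodies and at gene ends, and whether the 2 alleles differ likewise when they share a nucleus.

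H3K27ac marks active promoters and enhancers and is written by the acetyltransferases p300 and CBP. At an expressed gene it lies on the nucleosomes that flank the start site and reaches into the first exon and the 5′ UTR, whereas in the rest of the gene body and at its 3′ end it is found mostly where an enhancer overlaps the transcribed sequence. In macrophages such enhancers are bound by the ETS factor PU.1 together with AP-1, IRF, MAF and other factors, and an enhancer inside an exon or 3′ UTR need not act on the gene whose transcript it overlaps.

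Examples of motif matches in transcribed sequence are shown from windows whose level is described further on. They come from RefSeq's mm10 assembly, which is the C57BL/6J sequence, are written 5′ to 3′ on the strand of the match, and show the match to a searched motif in capitals. Helz2 and Psmb8 carry GAAA, 2 free bases and GAAA, a motif of interferon regulatory factors (IRF), in exon 2 of Helz2 (chr2:181240590-181240619, minus strand) and in the 5′ UTR of Psmb8 (chr17:34198335-34198364, minus strand). Arf2 holds in its 3′ UTR both TGACTCA, the AP-1 motif (chr11:103984260-103984289, plus strand), and GAGGAAGT, an ETS motif bound by PU.1 (chr11:103984214-103984243, plus strand). Col11a2 holds in exon 36 a MAF motif (GCTGAC, 3 free bases and GC) with TGACTCA nested inside it (chr17:34057493-34057522, minus strand). Marveld2 carries the ETS motif in exon 4 (chr13:100600506-100600535, minus strand) and Tlr4 the AP-1 motif in its 3′ UTR (chr4:66843497-66843526, minus strand).
Helz2 exon: ttccccgattGAAACTGAAAgaggctgtgc
Psmb8 5′ UTR: acaaggaagtGAAAGCGAAAgccacagtac
Arf2 3′ UTR, AP-1: gttagctcagacTGACTCAtttaggtggtt
Arf2 3′ UTR, ETS: accacgggtgtGAGGAAGTtcagagggact
Col11a2 exon: accaaggcgGCTGACTCAGCaagatccaag
Marveld2 exon: caggccatcctGAGGAAGTttgacgagctg
Tlr4 3′ UTR: tattttcttaaTGACTCAtggtttaagttg

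In the central 200 bp the exon, UTR and TTS windows held TGACTCA on either strand in 6.61% of cases, against 11.6% of all other autosomal windows, and the share was 5.07% in exons, 8.37% in 3′ UTRs, 3.69% in 5′ UTRs and 9.21% at TTS. GAGGAAGT was found in 6.85% against 8.68% of the others, the IRF motif in 3.16% against 4.35%, the NF-κB motifs (GGGAA followed by TTCCC, or GGGAC by TTTCC) in 0.137% against 0.333%, and the MAF motif or its short form TGCTGAC in 6.73% against 6.26%. The LXR motif (GGTCA, 4 free bases and AGGTCA) was in none of the 5857 windows and in 0.0736% of the others. A match is a string of letters and not a measured binding site, and a TGACTCA inside a MAF match counts for both. Base composition separated the classes: the median GC content was 59.5% in exon and 67.0% in 5′ UTR windows, against 49.5% in 3′ UTR, 50.5% in TTS and 49.0% in the other windows. The median number of CpG in 200 bp was 18 in 5′ UTR and 9 in exon windows and 3 in each of 3′ UTR, TTS and the others.

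The windows lay in 4212 annotated genes, of which 3131 had 1 window and 338 had 3 or more, up to 9 in Rxra. Of 5829 windows matched to a transcript, 1936 (33.2%) lay in another gene than the one with the nearest start site, and below both are named where they differ. The median distance to the nearest start site was 237 bp for 5′ UTR, 2166.5 bp for exon, 5072 bp for TTS and 9882 bp for 3′ UTR windows. Neighbouring windows overlapped in 31.6% of cases and share reads there, so they are not independent. Open chromatin seen only after lipopolysaccharide (LPS), a bacterial inducer of inflammation, gave 431 of the windows (7.36%, against 11.0% of all windows).

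Libraries held 2291218 to 12980348 H3K27ac tags in all windows (median 8513920), with replicate 2 of each strain the shallowest, and input libraries 583487 to 1916591. The F1 gave only 190220 to 440625 tags per allele and library, since a read must span a variant to be assigned. Of 10 Kupffer cell markers, 8 had a promoter window, with a median of 184 normalized counts (74.1 to 355). None of 5 hepatocyte, 5 stellate cell and 6 B and T cell markers had one, 2 of 6 markers of sinusoidal endothelial cells were at 3.55 and 11.1, and 1 of 6 markers of monocytes and neutrophils, S100a8, was at 24.8 (43.2 for BALB/cJ, 14.5 for A/J and 16.7 for C57BL/6J). In sorted bulk chromatin, fewer cells that carry the mark and less of the mark per cell cannot be told apart. The labels number the libraries without saying that each is a separate mouse, so p-values measure the spread between these libraries.

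H3K27ac was high in 5′ UTR windows and first exons and low in the rest of the transcript. The median over windows of the mean normalized count, a tag count scaled to the mean effective library size, was 106 in 5′ UTR windows, close to the 114 of promoter windows. Exon windows had 35.0, TTS windows 26.4 and 3′ UTR windows 25.7, beside 30.1 in introns and 16.1 between genes. The input of the same windows had library medians of 6.89 to 9.36 in all 4 classes. Input was scaled to the mean of the shallower input libraries, so its counts cannot be set against H3K27ac counts. Shares of tags, given below, compare the 2. Within the set the level dropped with distance: windows within 1 kb of a start site had a median of 98.6, those at 1 to 2 kb 45.8, those at 2 to 10 kb 22.6 and those beyond 10 kb 19.2. First exons stood at 106, internal exons at 28.0, last exons at 22.3 and genes of a single exon at 52.7. Exon windows themselves dropped from 93.3 within 1 kb to 17.8 at 2 to 10 kb and dropped no further beyond 10 kb, at 19.2.

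**Figure D1:**
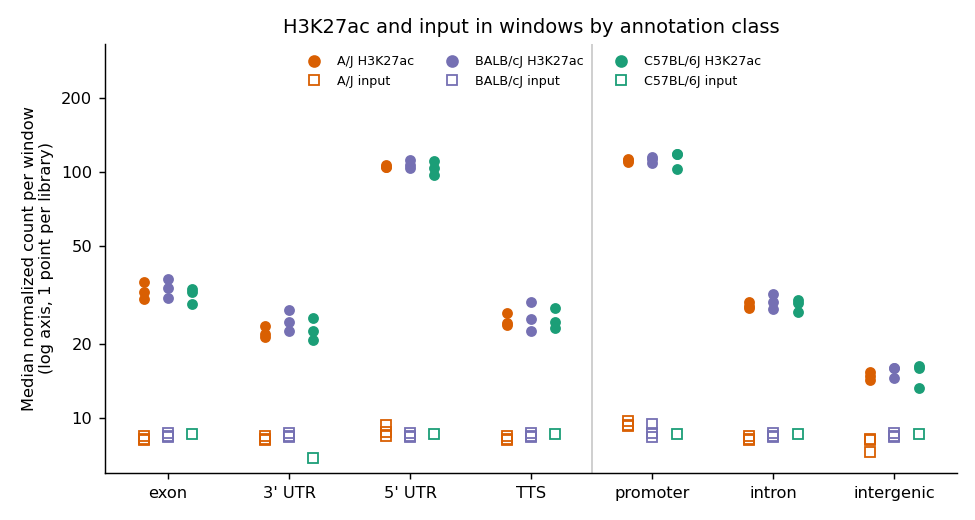
Median normalized count per window (log axis) in each H3K27ac library (filled) and input library (open), by strain and annotation class, with promoter, intron and intergenic windows on the right for comparison. The 5′ UTR medians lie beside those of promoters, all between 96.6 and 112, and the exon, 3′ UTR and TTS medians between 20.8 and 36.6, above input medians of 6.89 to 9.36.

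Transcribed sequence took a larger share of tags in ChIP than in input, and the excess came from windows close to start sites. The exon, UTR and TTS windows held 6.73% ± 0.219 (SD, n = 9) of the H3K27ac tags of all windows and 5.40% ± 0.0960 (n = 7) of the input tags. The share of 5′ UTR windows was 1.87% ± 0.0727 against 0.833% ± 0.0390, or 2.24-fold, and that of promoter windows was 2.13-fold above input. Exon windows had 2.62% ± 0.108 against 2.15% ± 0.0472. In 3′ UTR windows the order was the opposite, with 0.797% ± 0.0376 in ChIP and 0.969% ± 0.0175 in input. These 4 differences passed an exact two-sided permutation test over libraries, each with an adjusted p = 0.000219 (raw p = 0.000175, the smallest that 9 against 7 libraries can give). TTS windows had 1.44% ± 0.0607 against 1.45% ± 0.0280, a difference smaller than the spread between libraries (exact permutation, adjusted p = 0.702). With windows within 2 kb of a start site left out, the difference of ChIP minus input turned to -0.878 percentage points for the whole set and -0.419 for exons, and 3′ UTR and TTS windows were at -0.231 and -0.256. Only 5′ UTR windows kept an excess, of 0.0288 percentage points (exact permutation, adjusted p = 0.000175). Without the replicate 2 ChIP libraries the TTS difference was -0.0433 percentage points and passed the test (exact permutation, adjusted p = 0.0455). No difference of the share between strains passed the test in any class, with or without the replicate number as a block. The whole set held 6.83% ± 0.278 of the A/J tags, 6.70% ± 0.200 of the BALB/cJ tags and 6.65% ± 0.221 of the C57BL/6J tags (n = 3 each, exact permutation, adjusted p = 0.721), and the lowest adjusted p, 0.536, belonged to the 5′ UTR windows at 1.93% ± 0.0858, 1.87% ± 0.0289 and 1.81% ± 0.0477. Within replicate numbers A/J had the highest share of the whole set in 3 of 3 (6.78%, 7.13% and 6.58%, where BALB/cJ had 6.62%, 6.93% and 6.56% and C57BL/6J 6.63%, 6.88% and 6.44%, exact permutation within numbers, p = 0.0556, adjusted p = 0.278).

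The 3 windows with the highest H3K27ac level of each class all lay within 2 kb of an annotated start site. Ssu72, a phosphatase of the tail of RNA polymerase II, led the 5′ UTR windows with mean normalized counts of 906 ± 158 for A/J, 947 ± 283 for BALB/cJ and 794 ± 209 for C57BL/6J (SD, n = 3). Xbp1, a transcription factor of the unfolded protein response, followed with 878 ± 67.1, 766 ± 208 and 634 ± 87.3, and the antiviral factor Zc3hav1 with 768 ± 99.3, 756 ± 211 and 692 ± 148. Among exon windows Clk3 had 892 ± 118, 845 ± 228 and 733 ± 41.5, with Leng9 and Fam117b next. The highest 3′ UTR windows belonged to 2 genes of a single exon and to 1 that ends near another start site: the histone gene H2aj (H2afj in the annotation) had 681 ± 29.1, 582 ± 123 and 540 ± 116, the immediate early gene Ier5 527 ± 123, 489 ± 96.0 and 461 ± 104, and the 3′ UTR of Pik3r2, whose nearest start site is that of Ifi30, 525 ± 62.0, 443 ± 26.8 and 641 ± 157. Mir1893 (779 ± 175, 774 ± 221 and 660 ± 27.3), Marchf2 and Mir8104 led the TTS windows. None of these 12 windows was called between strains.

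The question of the strain comparisons is which of these windows differ in H3K27ac with the genome of the mouse. A window was tested if its mean normalized count was over 16, and called if its Benjamini-Hochberg adjusted p, over all 60387 windows tested by edgeR's quasi-likelihood test, was under 0.05 with a difference of more than 2-fold. Of the 5857 windows 3786 were tested and 2071 fell under the limit. Called in at least 1 of the 3 comparisons were 446 (11.8%) in 360 genes, beside 12.3% of all tested windows. The pair A/J and BALB/cJ gave 124 calls, 3.28% beside 3.63% of all windows tested. A/J was higher in 48 (all windows 1.4%) and BALB/cJ in 76 (all windows 2.23%). A/J against C57BL/6J gave 256 or 6.76% beside 7.09%, with A/J higher in 112 (all windows 3.16%) and C57BL/6J in 144 (all windows 3.93%). For BALB/cJ against C57BL/6J the count was 298 or 7.87% beside 8.56%, with BALB/cJ higher in 166 (all windows 4.46%) and C57BL/6J in 132 (all windows 4.1%). The shares of the whole set were thus near those of all windows. A block for the replicate number gave 190 calls for the first pair in place of 124. It gave 76 without BALB/cJ replicate 3, and A/J against C57BL/6J gave 166 without C57BL/6J replicate 3. The 3 comparisons share libraries, so their counts are given side by side and not compared.

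Classes differed in how often they were called. The median absolute log2 fold change of a tested window between BALB/cJ and C57BL/6J was 0.37 in 3′ UTR, 0.33 in TTS, 0.30 in exon and 0.21 in 5′ UTR windows, beside 0.30 over all windows and 0.21 in promoters. Called between these strains were 84 of 660 3′ UTR windows (12.7%), 81 of 972 TTS (8.33%), 101 of 1451 exon (6.96%) and 32 of 703 5′ UTR windows (4.55%), beside 3.78% of promoter, 9.23% of intron and 11.8% of intergenic windows. Between A/J and C57BL/6J the shares were 10.6% in 3′ UTR, 7.1% in TTS, 6.13% in exon and 3.98% in 5′ UTR windows. Between A/J and BALB/cJ they were 3.33%, 4.42%, 3.1% and 1.99% in the same order. Distance from a start site went with the share: of windows within 1 kb 4.55% were called between BALB/cJ and C57BL/6J, of those at 1 to 2 kb 6.02%, at 2 to 10 kb 8.4% and beyond 10 kb 13.6%. Last exons had 11.8%, internal exons 9.09% and first exons 4.28%. Level moved with the same share. In bins set after the values were seen, 11.8% of the windows with a mean count of 16 to 50 were called between BALB/cJ and C57BL/6J. From 50 to 150 it was 9.57% and above 150 it was 1.01%, beside 13.4%, 8.55% and 1.61% of all windows. The order of the 4 classes changed with level. From 16 to 50, 5′ UTR windows were called most often of the 4 in each comparison. They had 6.78% between A/J and BALB/cJ, 15.3% between A/J and C57BL/6J and 16.1% between BALB/cJ and C57BL/6J. In the last of these 3′ UTR windows had 12.4%. From 50 to 150 and above 150, 5′ UTR windows were called least often of the 4 in each comparison. The difference between classes at equal level was not tested. More than 4-fold differences were found in 42, 90 and 95 of the called windows of the 3 comparisons, beside 710 of 2192, 1576 of 4282 and 1697 of 5171 called windows in the whole table.

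**Figure D2:**
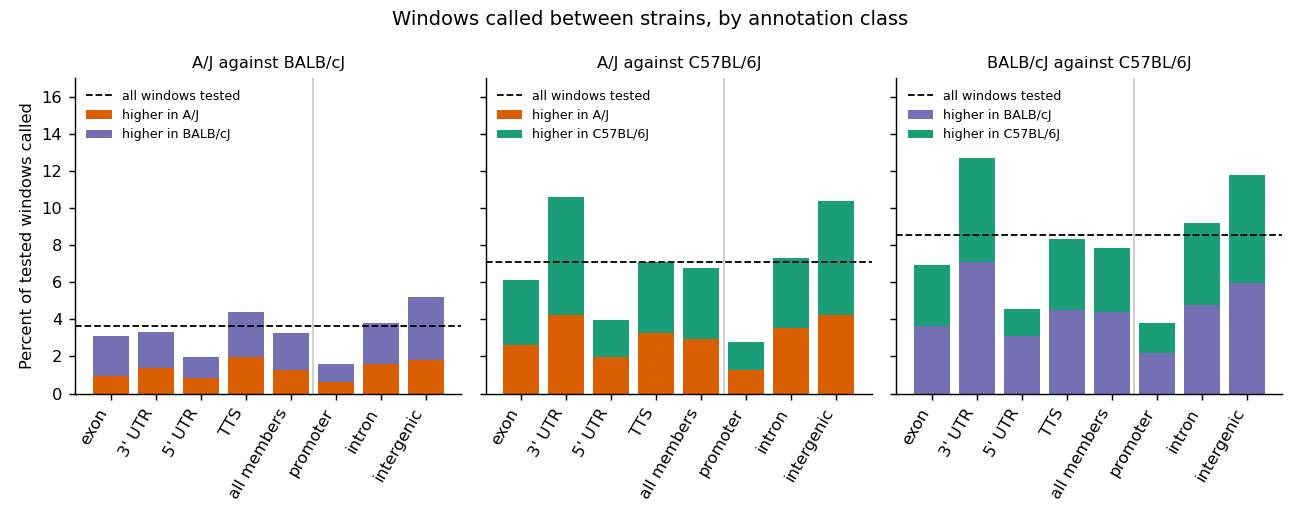
Percent of tested windows called in each strain comparison (bars, split by the strain with the higher count) by annotation class, with promoter, intron and intergenic windows to the right and the share of all windows tested as a dashed line. The 3′ UTR bars reach 10.6% and 12.7% in the comparisons with C57BL/6J and 3.33% between A/J and BALB/cJ, and 5′ UTR bars are the lowest of the 4 classes in each panel.

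In a first group of windows A/J was the highest strain. Exon 22 of Adamts10, a secreted metalloprotease, next to the start of the leukocyte myosin Myo1f (chr17:33549973-33550973), had 151, 59.3 and 111 normalized counts in A/J replicates 1 to 3. BALB/cJ had 0, 2.29 and 2.92 and C57BL/6J 2.66, 2.33 and 0. A/J stood above both other strains without overlap, with 397 tags in all against 5 in BALB/cJ and 3 in C57BL/6J. On the log2 scale the difference to BALB/cJ was 5.96 ± 0.57 (SE, adjusted p = 1.5e-07), and A/J against C57BL/6J was called as well (adjusted p = 6.2e-08). Input of the same window was 8.68 for A/J, 9.70 for BALB/cJ and 8.61 for C57BL/6J, similar in the 3 strains. The TTS window of Abca5, a lipid transporter of the ABC family (chr11:110268087-110269087, nearest start Abca6), had 168, 101 and 169 in A/J against 9.29 to 21.9 in BALB/cJ and 4.66 to 10.7 in C57BL/6J (log2 fold changes 3.15 ± 0.33 and 4.01 ± 0.37, adjusted p = 5.4e-07 and 2.1e-08). Tmem203 at its TTS (chr2:25256126-25257126) was likewise higher in A/J, with 110 to 178 against 18.3 to 45.3 and 34.9 to 39.0.

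In other windows A/J was the lowest strain. The 3′ UTR of Arf2, a small GTPase of the ADP-ribosylation factor family (chr11:103983767-103984767), which holds the AP-1 and ETS motifs printed above, had normalized counts of 5.89, 23.7 and 11.0 in A/J. Those of BALB/cJ were 290, 247 and 259 and those of C57BL/6J 228, 298 and 254. The 2 latter strains overlapped and both lay above A/J without overlap, by log2 fold changes of -4.62 ± 0.32 and -4.58 ± 0.32 for A/J (adjusted p = 1e-09 and 3.9e-10). The adjoining TTS window of Arf2 showed the same order with 14.1 ± 8.45, 114 ± 20.3 and 84.4 ± 30.7 (SD, n = 3). At the promoter of Arf2, 17780 bp away, A/J and BALB/cJ differed by 0.19 on the log2 scale (adjusted p = 0.80). Exon 16 of Pnpt1, a mitochondrial RNA-degrading enzyme (chr11:29146812-29147812), had 3.68, 5.93 and 6.47 in A/J against 63.3, 59.5 and 48.2 in BALB/cJ and 140, 126 and 110 in C57BL/6J. These 3 groups did not overlap, and each pair of strains was called (log2 fold changes -3.40 ± 0.36, -4.54 ± 0.35 and -1.13 ± 0.26). Exon 4 of Marveld2, which encodes tricellulin of epithelial junctions (chr13:100600076-100601076), had 15.5, 26.7 and 23.3 in A/J against 103 to 214 in BALB/cJ and 97.3 to 170 in C57BL/6J. Klf9, a zinc finger transcription factor, had in its first exon (chr19:23141603-23142603) 58.2, 35.6 and 64.7 in A/J against 188, 197 and 225 in BALB/cJ and 249, 212 and 237 in C57BL/6J, with A/J lower by -1.87 ± 0.24 and -2.06 ± 0.24. The first exon of Hmox2, a heme oxygenase (chr16:4756630-4757630), followed the same order with 78.0 ± 31.1, 255 ± 46.7 and 328 ± 100.

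In a few windows BALB/cJ stood apart. The TTS window of Arg2, the mitochondrial arginase (chr12:79156478-79157478, nearest start Vti1b), had 266, 179 and 250 normalized counts in BALB/cJ, where A/J had 47.1, 35.6 and 58.2 and C57BL/6J 65.3, 30.3 and 64.9. BALB/cJ lay above both without overlap, by a log2 fold change of 2.06 ± 0.27 over C57BL/6J (adjusted p = 5.7e-06), and the Arg2 promoter, 26133 bp away, was called in the same direction (1.34, adjusted p = 0.00060). The TTS window of Scand1, nearest to the start of Cnbd2 (chr2:156310531-156311531), was lower in BALB/cJ with 49.0, 50.4 and 36.5 against 121 to 169 in A/J and 140 to 196 in C57BL/6J. Exon 36 of Col11a2, a fibrillar collagen chain (chr17:34056934-34057934), had 2.53, 4.58 and 2.92 in BALB/cJ, where A/J had 70.7, 29.7 and 39.5 and C57BL/6J 98.6, 65.2 and 115. BALB/cJ was lower than C57BL/6J by -4.92 ± 0.45 on the log2 scale (adjusted p = 1.8e-08), and the difference of A/J and C57BL/6J (-0.95 ± 0.30, adjusted p = 0.052, or 0.0018 with the replicate block) did not pass the test, but its adjusted p was 0.0018 with the replicate block.

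In further windows C57BL/6J was the lowest strain. The first exon of Cacna1a, the pore subunit of a neuronal calcium channel (chr8:84415265-84416265), had 184, 202 and 149 normalized counts in A/J and 222, 119 and 104 in BALB/cJ but 2.66, 4.66 and 0 in C57BL/6J, where input was 6.89. A/J and BALB/cJ overlapped, and both exceeded C57BL/6J without overlap by log2 fold changes of 6.76 ± 0.54 and 6.53 ± 0.54 (adjusted p = 4.1e-09 and 7.8e-09). Exon 21 of the same gene, for which the nearest start is that of the immediate early gene Ier2 (chr8:84567184-84568184), had 87.8 ± 9.92 and 102 ± 17.2 against 7.89 ± 2.47. The last 2 exon windows of Cacna1a were not called, with strain means of 59.0 to 72.3. Exon 7 of Akap13, a protein kinase anchor, carried 3 overlapping windows, all called in both comparisons with C57BL/6J. The middle one (chr7:75609546-75610546) had 155, 53.4 and 141 in A/J and 110, 110 and 115 in BALB/cJ but 7.99, 6.99 and 3.78 in C57BL/6J (4.42 ± 0.41 and 4.29 ± 0.41). In the 3′ UTR of Pigv, a mannosyltransferase of GPI anchor synthesis (chr4:133661900-133662900), the counts were 163, 184 and 151, then 156, 135 and 73.8, and 2.66, 14 and 7.56 in C57BL/6J. The 3′ UTR of Eri1, an exoribonuclease (chr8:35466409-35467409), had 117 ± 39.4, 120 ± 28.5 and 12.1 ± 8.05. TTS of Mir6973a (chr17:35195380-35196380) had 350 ± 67.3 and 203 ± 69.8 against 26.9 ± 3.80 in C57BL/6J, but the 1 C57BL/6J input library was at 0 there. Low C57BL/6J input was more frequent among calls lower in C57BL/6J than among all tested windows. It was more than 4-fold below that of the other strain in 13 of 112 calls against A/J (11.6%). Against BALB/cJ it was so in 16 of 166 (9.64%), beside 4.31% of tested windows in each comparison. Of the calls higher in C57BL/6J, 1 in each comparison had input that low in the other strain. The part of input in these calls was not tested.

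In other windows C57BL/6J was the highest strain, in some of them with only a few counts in the rest and in others, such as Gsr, Arhgap31 and Lrp4, with higher counts in the rest. A 3′ UTR window of Uhrf1bp1, near the start of the TFIID subunit gene Taf11 (chr17:27896705-27897705), had 203, 177 and 278 normalized counts in C57BL/6J against 4.42, 2.97 and 0 in A/J and 0.844, 2.29 and 3.65 in BALB/cJ. The log2 fold changes of A/J and BALB/cJ over C57BL/6J were -6.59 ± 0.48 and -6.50 ± 0.47 (adjusted p = 6.7e-10 and 7.1e-10), while at the promoter of Uhrf1bp1 40775 bp away they were -0.56 and -0.17 (adjusted p = 0.15 and 0.73). Rps6ka1, a kinase downstream of ERK, had 151, 97.8 and 139 in its 3′ UTR in C57BL/6J (chr4:133847445-133848445) against 0 to 8.10 and 0.730 to 9.16 in the other strains, and its overlapping TTS window 104 ± 17.4 against 2.77 ± 1.22 and 5.07 ± 3.77. The promoter of Rps6ka1, at the other end of the gene, changed the other way without reaching 2-fold (0.78 and 0.88 on the log2 scale, adjusted p = 0.039 and 0.015). The first exon and 5′ UTR of Ank2, an ankyrin (chr3:127498418-127499418), had 145, 76.8 and 155 in C57BL/6J against 3.68, 5.93 and 1.29 in A/J and 7.60, 6.87 and 7.30 in BALB/cJ. Arhgap31, an inhibitor of the GTPases Cdc42 and Rac1, had 163, 191 and 181 in its 5′ UTR (chr16:38712363-38713363) against 38.2 to 68.2 and 34.3 to 58.3. Gsr, glutathione reductase, had 321, 314 and 355 in its 5′ UTR (chr8:33652983-33653983) against 98.3 to 118 and 106 to 133, with the C57BL/6J input at 0. In exon 31 of Lrp4 (chr2:91497934-91498934) C57BL/6J had 253 ± 44.5 against 44.4 ± 7.78 and 32.1 ± 10.0. The 5′ UTR window of the zinc finger gene Zfp951 (196 ± 50.1 in C57BL/6J against 10.7 ± 6.50 and 9.73 ± 5.39) had input means of 0.344 for A/J, 1.05 for BALB/cJ and 5.17 for C57BL/6J, and the part of input in the difference was not tested.

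**Figure D3:**
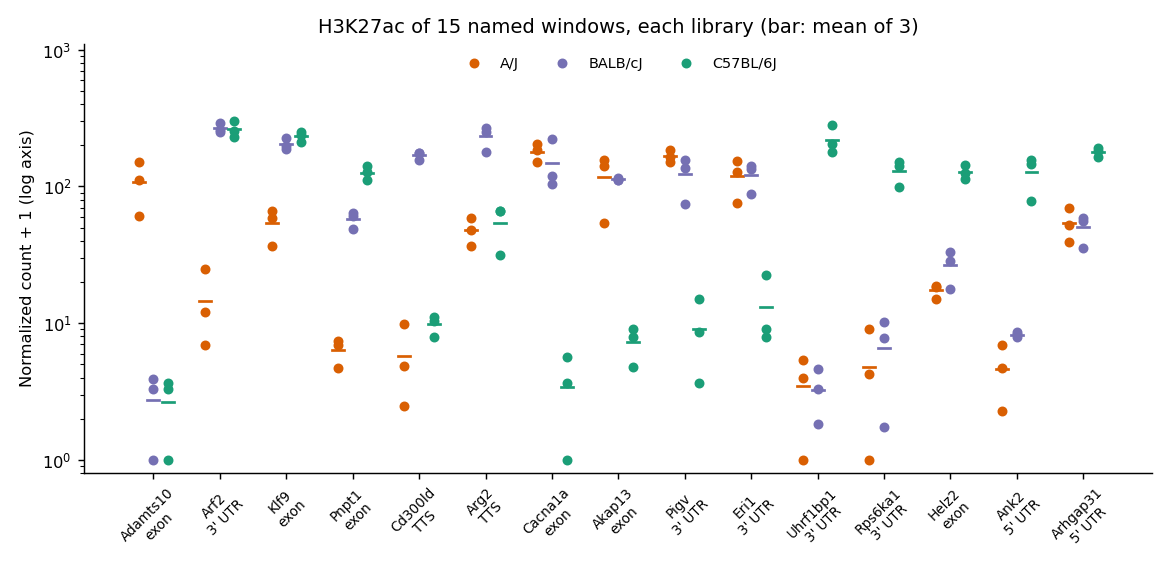
Normalized H3K27ac count plus 1 (log axis) of each library in 15 named windows, by strain, with a bar at the mean of 3 libraries. Windows on the left have the mark in A/J alone or reduced in A/J, and Cd300ld and Arg2 beside them have it raised in BALB/cJ. Then follow windows with the mark reduced in C57BL/6J and, on the right, those with it raised in C57BL/6J. In Uhrf1bp1 the C57BL/6J libraries lie between 177 and 278 and all others under 5.

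Where a gene held several called windows, the calls in it pointed the same way. Of 704 genes with at least 2 tested windows, 37, 86 and 96 had a call in the 3 comparisons, all tested windows were called in 14, 25 and 25 of them, and 0 had calls in both directions. A gene with only 1 called window, such as Klf9 or Golga5 for A/J against BALB/cJ, could not have calls in both directions. Overlapping windows share reads, so the agreement within genes is partly the same signal counted again. With 1 window per overlapping run, 90, 195 and 218 windows were called. The genes described next were picked after their values were seen.

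Vezt, which encodes a protein of adherens junctions, had 8 tested windows over its 3′ UTR and TTS, and all 8 were called in both comparisons with C57BL/6J and 0 between A/J and BALB/cJ. Its windows nearest the transcript end (from chr10:93960960-93961960 to chr10:93961858-93962858) were marked in each strain and higher in C57BL/6J, for example 174 ± 28.8 against 69.2 ± 11.7 in A/J and 74.9 ± 5.56 in BALB/cJ at the TTS. Further into the 3′ UTR the mark was found in C57BL/6J alone: at chr10:93966741-93967741 the counts were 149, 105 and 186 in C57BL/6J against 2.94, 0 and 9.06 in A/J and 8.44, 2.29 and 4.38 in BALB/cJ (log2 fold changes -4.77 ± 0.43 and -4.70 ± 0.43). The nearest start site is that of the microRNA gene Mir331, and at the Vezt promoter the differences were -0.74 and -0.70 (adjusted p = 0.062 and 0.066). Of the calls near the transcript end, 1 in each comparison was lost without C57BL/6J replicate 3. All 3 windows of Helz2, a helicase and transcriptional coactivator, in exons 2 and 3 were higher in C57BL/6J, and the one with the IRF motif printed above (chr2:181240130-181241130) had 112, 142 and 123 in C57BL/6J against 14, 17.8 and 17.5 in A/J and 32.1, 27.5 and 16.8 in BALB/cJ (-2.95 ± 0.31 and -2.32 ± 0.29). The promoter of Helz2 differed from C57BL/6J by -0.28 in A/J and -0.45 in BALB/cJ and was not called (adjusted p = 0.53 and 0.21).

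Cd300ld, an activating receptor gene of myeloid cells, changed along its length. At the TTS (chr11:114981559-114982559) the counts were 175, 156 and 174 in BALB/cJ, where A/J had 1.47, 8.90 and 3.88 and C57BL/6J 9.33, 6.99 and 10.1, so that BALB/cJ stood alone (-5.55 ± 0.39 for A/J against BALB/cJ and 4.17 ± 0.34 for BALB/cJ against C57BL/6J). At exon 2 (chr11:114987013-114988013) BALB/cJ with 89.5, 105 and 67.2 and C57BL/6J with 82.6, 83.8 and 101 overlapped, and A/J had 11.0, 5.93 and 2.59. At the promoter A/J was lower, by -1.07 against BALB/cJ (adjusted p = 0.0071) and -1.49 against C57BL/6J (adjusted p = 9.5e-05). Kcna2, a voltage-gated potassium channel gene found in a list of Kupffer cell genes, had 5 tested windows in its last exon, all called between A/J and C57BL/6J with log2 fold changes of -1.96 to -1.20, and BALB/cJ means lay between those of the other strains in each window. The window at chr3:107110485-107111485 had 10.3, 8.90 and 12.3 in A/J against 32.9, 32.0 and 24.1 in BALB/cJ and 34.6, 55.9 and 40.9 in C57BL/6J. Its call against BALB/cJ (-1.41 ± 0.38) was lost when any 1 of the 6 libraries of that pair was left out, and 2 of the 5 calls against C57BL/6J were lost without A/J replicate 1 or C57BL/6J replicate 3. The promoter of Kcna2 differed by -1.71 (adjusted p = 0.00012).

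**Figure D4:**
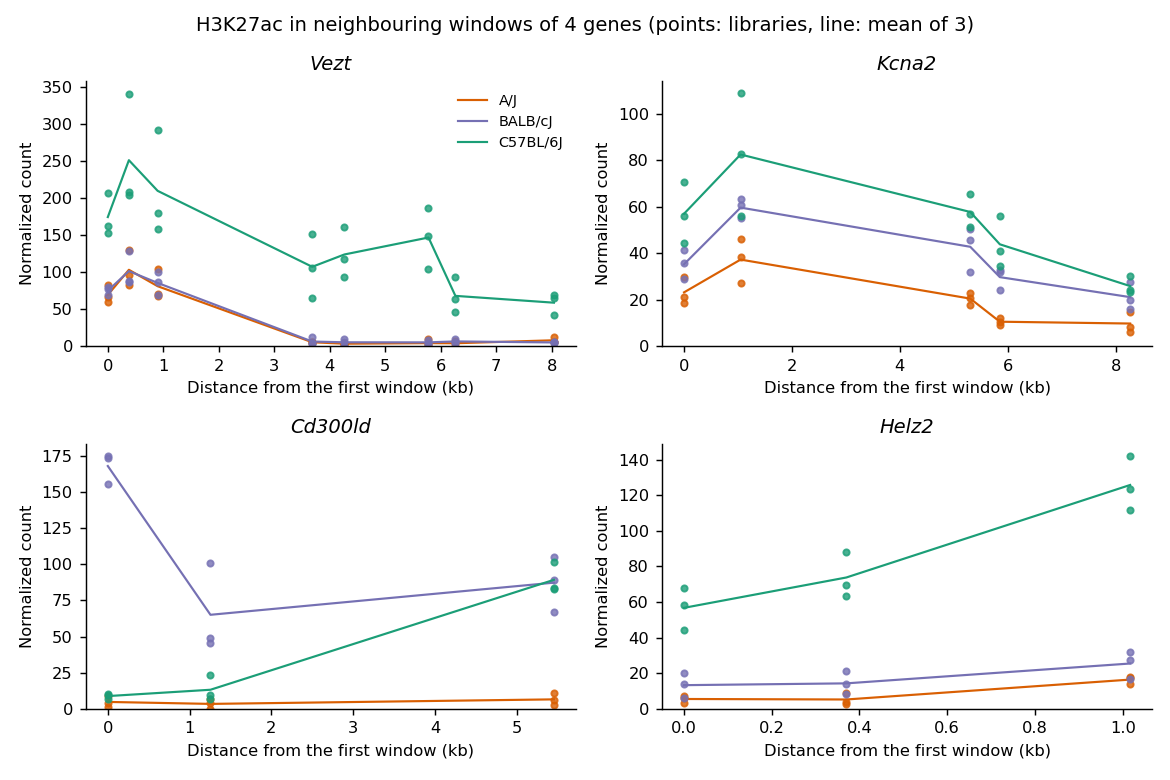
Normalized H3K27ac count of each library (points) and strain mean (lines) against the distance from the first tested window in kilobases for Vezt, Kcna2, Cd300ld and Helz2. In Vezt the A/J and BALB/cJ means fall to between 3.23 and 7.86 from the fourth window on while C57BL/6J stays between 58.7 and 147, and in Cd300ld the C57BL/6J mean moves from 8.80 at the transcript end to 89.3 at exon 2.

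Smaller runs followed one pattern each. The 3 windows of Fam20b (a kinase of proteoglycan synthesis, nearest start Tor3a) in its 3′ UTR were lower in C57BL/6J than in A/J by 1.66 to 4.39 and than in BALB/cJ by 1.56 to 4.27 on the log2 scale, whereas the Fam20b promoter differed by -0.16 and -0.04. Pgpep1 windows at the transcript end and in the 3′ UTR were higher in A/J than in BALB/cJ by 1.87 to 2.35. The TTS window among them, with 694, 329 and 609 in A/J and 204, 50.4 and 179 in BALB/cJ, was no longer called without A/J replicate 1 or 3, BALB/cJ replicate 3 or C57BL/6J replicate 1. Pim1, a serine kinase induced by cytokines, was higher in A/J than in BALB/cJ in all 3 of its windows by 1.33 to 1.97, with 295, 409 and 386 against 161, 137 and 132 at exon 4 (chr17:29491416-29492416). Emilin2, an extracellular matrix protein, was higher in BALB/cJ than in C57BL/6J in 3 of 3 windows (1.60 to 2.03, the lowest of which was lost without BALB/cJ replicate 1 or 2 or C57BL/6J replicate 1 or 3). Atg14, a subunit of the autophagy kinase complex, was lower in A/J than in C57BL/6J in 3 of 3 windows of its 3′ UTR (-1.61 to -1.35, the weakest lost without A/J replicate 1 or 3 or C57BL/6J replicate 3).

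To see whether the rest of the gene moved along, each tested window at least 2 kb from the promoter window of its own gene was set beside that promoter window. This gave 1551 pairs. The window was called in 49, 122 and 133 of them in the 3 comparisons, and the promoter was called in the same direction in 6, 9 and 12. Of all tested promoter windows 1.57%, 2.81% and 3.78% were called in either direction, a lower share in each comparison. The promoter difference had the sign of the called window in 71.4%, 66.4% and 69.9% of cases, beside 57.6%, 56.2% and 55.4% of all pairs. In the direction of the called window the median promoter difference was 0.09, 0.34 and 0.23 on the log2 scale, against a median absolute difference of 1.65, 1.66 and 1.61 in the window itself. Called promoters included those of Arg2, Kcna2, Cd300ld and Cacna1a (6.15 and 6.20 over C57BL/6J in A/J and BALB/cJ) and of the chemokine receptor genes Ccr3 (1.78 and 1.97) and Cx3cr1 (2.05 in BALB/cJ against C57BL/6J). Promoters of Pigv, Eri1, Tlr4 and Ifit3 were not called.

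Gene groups of macrophage function were described by list, from the exon, UTR and TTS windows whose nearest start site was that of a listed gene, so that some lie in a neighbouring gene. Interferon response genes had 41 tested windows in 22 genes, of which 3, 3 and 6 were called in the 3 comparisons, in the order used above (7.32%, 7.32% and 14.6%, beside 3.63%, 7.09% and 8.56% of all windows). In the last of these 5 of the 6 were higher in C57BL/6J, and the median difference was -0.18 beside -0.01 over all windows. Ifit3, an antiviral effector induced by interferon, had in its 3′ UTR (chr19:34587904-34588904) 111, 140 and 104 in C57BL/6J against 31.7, 56.4 and 40.1 in A/J and 43.1, 66.4 and 42.4 in BALB/cJ (-1.53 ± 0.28 and -1.26 ± 0.28, adjusted p = 0.00050 and 0.0028). An exon of Irf1, an interferon regulatory factor, and the 5′ UTR of Oasl2 were lower in BALB/cJ than in C57BL/6J by -1.20 and -1.15. Rsad2, the antiviral enzyme viperin, was higher in A/J than in C57BL/6J in both of its called 3′ UTR windows (1.48 and 1.09). Gbp2b, a guanylate-binding GTPase, was higher in A/J than in BALB/cJ at its 3′ UTR and TTS (1.28 ± 0.30 and 1.11 ± 0.24), and both calls were lost without BALB/cJ replicate 1 or 3.

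The window at the TTS of Ifi202b, an interferon-inducible DNA-binding protein next to Ifi203 (chr1:173961198-173962198), was the only one of the 5857 called in input. Its H3K27ac counts were 290, 133 and 304 in BALB/cJ, where A/J had 69.2, 20.8 and 91.8 and C57BL/6J 37.3, 16.3 and 31.5, with log2 differences of -1.89 ± 0.36 for A/J against BALB/cJ and 3.04 ± 0.40 for BALB/cJ against C57BL/6J. In input it had 47 tags in BALB/cJ over 3 libraries, 13 in A/J over 3 and 6 in C57BL/6J in 1. The part of the input difference in the H3K27ac difference was not tested. In the input comparison of these 2 strains, 1 of 5768 windows was thus called (0.0173%, beside 0.0299% of all windows, of which 0.0139% were higher in A/J and 0.016% in BALB/cJ), with 274 at an unadjusted p under 0.05, 0 by DESeq2 and 0 when any replicate was left out.

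Chemokine and chemokine receptor genes had 13 tested windows, with 0, 2 and 3 called, and each of these 5 calls was lower in C57BL/6J (15.4% and 23.1% in the comparisons with C57BL/6J, beside 7.09% and 8.56% of all windows). The promoter of the monocyte and neutrophil marker S100a8 had a higher mean in BALB/cJ as well, at 43.2 against 14.5 in A/J and 16.7 in C57BL/6J, the other 5 markers of that list had no promoter window, and the part of such cells in these calls was not tested. Ccr3, the receptor for eotaxins, had in its 3′ UTR (chr9:124030047-124031047) 30.2, 41.5 and 38.8 in A/J and 44.7, 41.2 and 51.8 in BALB/cJ but 10.7, 9.31 and 3.15 in C57BL/6J (2.43 ± 0.44 and 2.8 ± 0.43). In the coding exon of Cx3cr1, the fractalkine receptor (chr9:120051216-120052216), BALB/cJ had 57.4, 32.0 and 51.1, A/J 19.9, 26.7 and 22 and C57BL/6J 7.99, 21.0 and 5.04. BALB/cJ exceeded C57BL/6J without overlap (2.38 ± 0.44, adjusted p = 0.00044), and with the replicate block the other 2 pairs of strains passed the test too (adjusted p = 0.013 and 0.026). Ccl24, an eotaxin, was higher in BALB/cJ than in C57BL/6J by 1.00 ± 0.28 and Ccl4, a chemokine for monocytes and T cells, in A/J than in C57BL/6J by 1.58 ± 0.37. The Ccl24 call was lost without BALB/cJ replicate 2 or 3 or C57BL/6J replicate 1 and that of Ccl4 without C57BL/6J replicate 3.

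Toll-like receptor genes and their signaling partners had 27 tested windows with 0, 1 and 1 called (3.7% in each comparison with C57BL/6J, beside 7.09% and 8.56% of all windows). Both calls were the window of the Tlr4 3′ UTR that holds the AP-1 motif printed above (chr4:66842978-66843978), in the gene of the LPS receptor. It had 61.1, 83.1 and 70.5 in A/J and 85.3, 91.6 and 80.3 in BALB/cJ against 34.6, 21.0 and 36.5 in C57BL/6J, without overlap (1.12 ± 0.28 and 1.40 ± 0.28, adjusted p = 0.010 and 0.00097), and the first of these calls was lost without C57BL/6J replicate 2. The Tlr4 promoter, 15875 bp away, differed by -0.18 and -0.17 (adjusted p = 0.74 and 0.73).

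Genes of Kupffer cell identity had 49 tested windows in 24 genes, with 1, 6 and 2 called (2.04%, 12.2% and 4.08%, beside 3.63%, 7.09% and 8.56% of all windows), and the calls of A/J against C57BL/6J were the 5 Kcna2 windows and the TTS of Id1, a target of BMP signaling, which was higher in A/J by 1.04. Immediate early and AP-1 genes, 71 windows in 26 genes, had 1, 2 and 2 calls (1.41%, 2.82% and 2.82%, under the share of all windows in each comparison), among them Klf9 and the Cacna1a exon nearest to Ier2. Of 13 windows of LXR targets and sterol synthesis, 2 were called (15.4%, beside 7.09% of all windows), both lower in A/J than in C57BL/6J: an exon of the apolipoprotein gene Apoc1 (chr7:19691454-19692454) with 101, 116 and 138 against 344, 193 and 538 (-1.62 ± 0.28, adjusted p = 0.00021) and the 5′ UTR of Apoe with 42.4 ± 9.60 against 83.2 ± 14.9 (-1.06 ± 0.28). The Apoe call was lost without A/J replicate 1 or 3 or C57BL/6J replicate 3.

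Antigen presentation genes had few tested windows. In the 3 comparisons 1, 1 and 0 of 3 MHC class II windows and 0 of 9 MHC class I windows were called by edgeR, beside 3.63%, 7.09% and 8.56% of all windows. Of 3 MHC class II windows, the TTS of H2-Eb2, near the pseudogene H2-Ea-ps (chr17:34341593-34342593), was higher in A/J, with 42.7, 77.1 and 44.6 against 10.1, 13.7 and 18.3 in BALB/cJ and 10.7, 4.66 and 13.9 in C57BL/6J (1.86 ± 0.39 and 2.23 ± 0.41). Among MHC class I windows the value was lower in BALB/cJ than in C57BL/6J in 9 of 9, with a median of -0.67 beside -0.01 over all windows. In the 5′ UTR of Psmb8, an immunoproteasome subunit whose IRF motif is printed above, the counts were 181 ± 25.8 for A/J, 127 ± 15.1 for BALB/cJ and 208 ± 46.9 for C57BL/6J, and the BALB/cJ difference of -0.74 ± 0.23 (adjusted p = 0.035) stayed under 2-fold. In exon 4 of H2-K1 the same difference was -1.24 ± 0.44 (adjusted p = 0.077, or 0.020 with the replicate block). Class I genes have near-identical copies, between which reads can be split in counting.

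The other lists had at most 2 calls in a comparison, beside 3.63%, 7.09% and 8.56% of all windows. Single coding exon G protein-coupled receptors (24 windows) had 1, 0 and 1, both in exon 2 of Ptger4, a prostaglandin E2 receptor, which was lower in BALB/cJ with 24.5, 18.3 and 11.0 against 39.8, 62.3 and 37.5 in A/J and 57.3, 65.2 and 35.9 in C57BL/6J. The A/J call was lost without any 1 of A/J replicates 1 to 3, BALB/cJ replicates 2 and 3 and C57BL/6J replicate 1, and the C57BL/6J call (-1.52 ± 0.37) without BALB/cJ replicate 3. Lipid handling and lysosome genes (16 windows) had 0, 0 and 1, in exon 2 of the protease gene Ctsd (-1.17 ± 0.31 for BALB/cJ against C57BL/6J), a call that was lost without BALB/cJ replicate 3 or C57BL/6J replicate 1 or 3. Actin and myosin genes (11 windows) had 1, 1 and 1, which were the Adamts10 exon near Myo1f and exon 2 of Myo9b (lost without C57BL/6J replicate 1). Housekeeping genes (16 windows) had 0, 0 and 2. One was the TTS of Hspa8, a constitutive heat shock chaperone, which was lower in BALB/cJ than in C57BL/6J (-1.16 ± 0.33), and its call was lost without BALB/cJ replicate 1 or 3 or C57BL/6J replicate 1 or 3.

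Motif content of called windows was set beside that of the other tested ones. TGACTCA was in 8.52% of the 446 called windows and 5.54% of the 3340 other tested ones, the MAF motifs in 9.19% and 6.41%, GAGGAAGT in 5.16% and 7.43% and the IRF motif in 3.81% and 3.77%. These are counts in the reference sequence alone, and the strains' own variants were not examined.

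The F1 hybrid asks whether the difference of the parental strains is found between alleles in 1 nucleus. Of the 5857 windows, 5727 held a region counted in the F1, but 4547 had no tag that could be assigned to an allele, and 321 (5.48%) passed the limit on the mean count. Of these 24 were called between alleles (7.48%, beside 7.2% of all windows tested), 11 higher on the BALB/cJ (all windows 2.94%) and 13 on the C57BL/6J allele (all windows 4.26%). By class they were 11 of 55 3′ UTR, 8 of 113 exon, 3 of 72 TTS and 2 of 81 5′ UTR windows. Overlapping windows can rest on the same F1 counts, as called 3′ UTR windows of Tor1aip2 and of Fam20b do. Such calls are not independent, and this holds for the counts of windows called in strains and alleles below. Both alleles are counted in the same library, and with the library as a block 10 windows were called in place of 24, 1 higher on the BALB/cJ and 9 on the C57BL/6J allele. Leaving out 1 library gave 8 to 37 calls.

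Alleles followed the parents in several windows with large differences. In the Col11a2 exon, whose MAF and AP-1 motif is printed above, the BALB/cJ allele had 0 tags in all 3 libraries and the C57BL/6J allele 109, 76.0 and 85.7 normalized counts (263 tags), which is at least 84.9-fold lower on the BALB/cJ allele against a floor of 3 tags over the group (adjusted p = 1.6e-06, or 0.040 with the block). The 3′ UTR of Pigv had 25.9, 36.4 and 61.4 on the BALB/cJ and 0, 2.92 and 0 on the C57BL/6J allele, without overlap (log2 fold change 4.91 ± 0.74, adjusted p = 0.00020, 0.061 with the block). The 2 overlapping 3′ UTR windows of Tor1aip2, a protein of the nuclear envelope, rest on the same F1 region, with 3.05, 0 and 1.02 against 36.2, 35.8 and 45.3 (-5.05 ± 0.72). Gsr had in its 5′ UTR 48.7, 16.7 and 37.9 on the BALB/cJ and 264, 170 and 257 on the C57BL/6J allele, again without overlap (-2.8 ± 0.31, adjusted p = 7e-06, 0.033 with the block), and the parental difference was -1.45 ± 0.21. Exon windows of Ryr1 and Rpgrip1 were called as well, with 33.9 ± 5.67 against 2.77 ± 2.41 (3.39 ± 0.63, adjusted p = 0.061 with the block) and 3.64 ± 0.540 against 32.5 ± 4.29 (-3.08 ± 0.56).

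Examples from windows under the count limit, chosen after their values were seen, are raw sums over 3 libraries without a test. The first exon of Cacna1a had 82 tags from the BALB/cJ and 0.5 from the C57BL/6J allele, and the Vezt 3′ UTR window at chr10:93966741-93967741 0 against 74.5. For Uhrf1bp1 the tags were 1.5 against 48.5, for the Rps6ka1 TTS 0 against 32.5 and for the Ank2 5′ UTR 11 against 70. Alleles of the overlapping Rps6ka1 3′ UTR window were even, with 10 against 9.5 tags, and Cacna1a exon 21 had 3.5 tags from each. No allele tags were seen at the exons of Helz2, Akap13 and Adamts10.

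Of the 321 windows, 39 were called between BALB/cJ and C57BL/6J. Of these 16 (41.0%) were also called between alleles in the same direction, beside 37.3% of such windows in the whole table, 23 were called between strains alone, and 8 further windows between alleles alone. These counts rest on the allele fit without the library as a block. With the block 10 of the 321 windows, and 154 in place of 377 of all windows, were called between alleles, and the overlap is not given for it. None was called in opposite directions, and 32 of the 39 had an allele difference of the parental sign. The median difference of the windows called higher in BALB/cJ was 1.75 between strains and 1.25 between alleles, and of those higher in C57BL/6J -1.31 and -0.94. Among all called windows with at least 20 allele tags, a limit set after the values were seen, 52 of 55 windows higher in BALB/cJ (94.5%) and 45 of 54 higher in C57BL/6J (83.3%) had more tags on the allele of that strain, beside 88.7% and 86.2% over all windows. A call in only one of the comparisons does not show that strain and allele differ. The test of that difference, an interaction of both contrasts in 1 edgeR fit, called 10 of the 321 windows (3.12%, beside 2.12% of all windows, of which 1.26% differed toward BALB/cJ between strains and 0.86% between alleles), 16 with the replicate block and 0 without replicate 3.

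**Figure D5:**
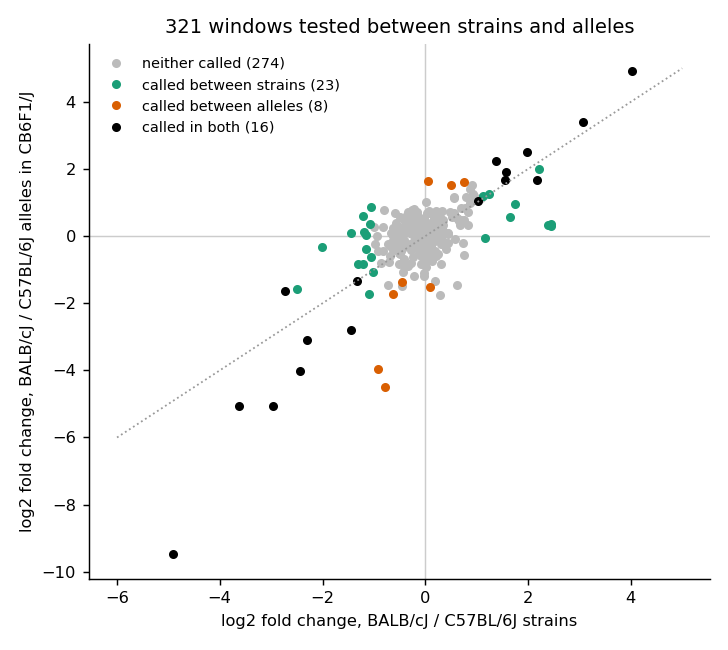
Log2 fold change of BALB/cJ over C57BL/6J between strains (horizontal) and between the alleles of CB6F1/J (vertical) in 321 windows, coloured by where they were called in the fits without a block, with a dotted line where both are equal. The 16 windows called in both lie in the quadrants of equal sign, and the point at -4.92 and -9.49 is Col11a2, for which the allele value is a fit against 0 tags and no measured size.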

How the data were processed

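H3K27ac ChIP–seq of Kupffer cells was analysed in 9 libraries of 3 inbred strains, 7 input libraries and 3 CB6F1/J libraries with 2 allele columns each. The authors aligned reads with Bowtie2 to the genome of each strain (mm10 or mm10 carrying the strain's variants), moved them to mm10 coordinates with MMARGE and counted tags with HOMER, the windows being 1000 bp wide and centred on ATAC–seq peaks merged over samples. The submitters' notes name FastQC, Bowtie2, HOMER and DESeq2, and the versions are not given in the sources used here. The deposited counts of replicates 1 and 3 are whole raw tags. The deposited values of replicate 2, of input and of the F1 columns go in steps of 0.5, and these values of the authors, taken for expected counts, were rounded to whole counts. The deposited F1 columns hold perfectly aligned reads that span a variant, in regions of 200 bp. Of 217456 regions 107291 were summed into a window by their midpoint. F1 input was not used here, nor were the 6 F1 columns of perfect reads without allele.

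Counts of all windows were fitted with edgeR 4.0.16 (R 4.3.3; TMM, robust quasi-likelihood test, mean normalized count over 16, or 5 for input), and p-values were adjusted by Benjamini and Hochberg over all windows tested. A window was called where the adjusted p was below 0.05 and the log2 fold change beyond 1 in either direction, and SE is the absolute log2 fold change over the root of the F statistic. Every adjusted p in the report without another test's name is from edgeR. The biological coefficient of variation was 0.214 (0.136 with the replicate block) between strains and 0.281 (0.224) between alleles. Shares of tags were compared by exact two-sided permutation tests in scipy 1.17.1. DESeq2 1.42.0, other size factors, other count limits, a replicate block, 1 window per overlapping run, 2 strains alone and left-out libraries were alternatives, and the scripts were tested on simulated data. The allele test is limited by assignable tags (4547 windows had none, which lack of a variant or of depth can give), and intervals and floors cover counting error only.

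Replicate numbers paired the samples: the deviations of the 9 same-numbered pairs of different strains correlated at 0.241 to 0.428, and those of other pairs at 0.0647 or less. The 2 alleles share a library.

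Named windows were, per class, comparison and direction, the 3 with the largest change among called windows whose libraries did not overlap and whose higher mean was at least 100 (50 for alleles), 1 per gene and without model gene names. To these were added the 3 with the highest level of each class and 2 to 4 of each gene list by adjusted p. Members and lists were chosen with earlier results of these data known. A result at 1 of the listed genes is not reported here. Sequences and transcripts are RefSeq's of GRCm38.p6 (mm10).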

Additional observations from a re-analysis of the deposited data

Results flagged for a closer look

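In 10 of the 321 windows tested both ways, the difference of BALB/cJ over C57BL/6J between strains was not that between the alleles of CB6F1/J, by the interaction term of edgeR's quasi-likelihood fit. Values are strain minus allele difference on the log2 scale, and with replicate 3 left out 0 of the 10 passed.

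In 4 exon windows near start sites the alleles differed more than the strains. The H2-D1 exon, nearest to H2-L, had -0.92 between strains and -3.95 between alleles, a difference of 3.05 ± 0.53 (SE, adjusted p = 0.00033). The BALB/cJ allele had 1.52, 6.82 and 6.14 normalized counts there and the C57BL/6J allele 96.5, 68.0 and 87.6, in a gene with near-identical copies. Klf13, a Krüppel-like transcription factor, differed by 1.62 ± 0.37 (0.10 and -1.53), Nupr1l by 2.06 ± 0.51 (0.62 and -1.45) and Upf3a, of nonsense-mediated decay, by -1.58 ± 0.44 (0.05 and 1.63).

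In TTS windows, Mir5131 differed by 3.75 ± 0.63 (-0.79 between strains and -4.49 between alleles, adjusted p = 0.00020). Scand1, nearest to Cnbd2, differed by -1.67 ± 0.44 (-2.0 and -0.32) and Tbc1d30 by 2.18 ± 0.60 (2.46 and 0.29), where the strains differed more than the alleles. Tlnrd1 (-1.91 ± 0.46, with -1.05 and 0.86) and the histone gene H4c1, Hist1h4a in the annotation (-1.59 ± 0.38, with -0.81 and 0.77), had differences of opposite sign. The 1 3′ UTR window was that of Txnl4a with 2.03 ± 0.54 (2.40 between strains and 0.33 between alleles). No library stood apart by Dixon's test among the groups of tag shares that were large enough for it.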

How the results depend on the processing

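The replicate block gave 190 calls for A/J against BALB/cJ (124 without it), 10 between alleles (24) and 16 in the test of strain against allele difference (10). Over all 3 comparisons of each named window it turned no direction between strains and added calls. For A/J against BALB/cJ these included Ctsd (adjusted p = 0.0080), the H2-Eb2 3′ UTR (0.013), H2-K1 (0.026), Cx3cr1 (0.013) and a Kcna2 window (0.019). For A/J against C57BL/6J they included Cd14 (0.0048), Col11a2 (0.0018), Ifi202b (0.00030), Plin2 (0.0086) and Cx3cr1 (0.026), and for BALB/cJ against C57BL/6J H2-K1 (0.020) and the Pgpep1 TTS (5.9e-10). Without a count limit 52 windows were called between alleles, and with a limit of 32 it was 15. DESeq2 called 0 in input.

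Leaving out 1 library gave 76 to 142 calls for A/J against BALB/cJ, lowest without BALB/cJ replicate 3. It gave 166 to 289 for A/J against C57BL/6J and 204 to 339 for BALB/cJ against C57BL/6J, both lowest without C57BL/6J replicate 3. It gave 8 to 37 between alleles and 0 to 0 in input. For strain against allele, a whole replicate number was left out of parents and F1, which gave 0 to 6 calls. For the ChIP minus input share, all ChIP and input libraries of 1 strain were left out at a time. The share difference ranged from 1.30 to 1.36 percentage points for all windows and 0.459 to 0.492 for exons. It ranged from -0.187 to -0.157 for 3′ UTRs, 1.02 to 1.06 for 5′ UTRs and -0.0255 to 0.00304 for TTS. With 1 replicate number left out in all strains, the range of strain means was 0.145 to 0.199, 0.0720 to 0.102, 0.0284 to 0.0542, 0.0754 to 0.144 and 0.0235 to 0.0666 in the same order.

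With windows within 2 kb of a start site left out, the share difference reversed to -0.878 for all windows and -0.419 for exons and passed the test for TTS (-0.256). For 5′ UTRs it stayed positive, at 0.0288. Without the replicate 2 ChIP libraries TTS had -0.0433. Their cause was not tested. For values under alternatives, each named window was taken only in the comparisons that named it or else in that of its lowest adjusted p. Of 2076 such values, 1976 kept the side of the threshold, 25 gained and 75 lost a call. Direction was checked only where the main fit gave a call, and 0 of those values reversed. Few tags could be assigned to an allele, and the 1 C57BL/6J input library allows no test of input against C57BL/6J.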
